A study of Mus musculus with 9 samples.

Results

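Translation initiation and elongation factors, the proteins that bring the ribosome to the start codon and move it along the mRNA, were followed through 9 mRNA sequencing libraries of striatal cell lines that model Huntington disease (HD). The group was taken from the count table by name. It holds every listed gene whose symbol starts with Eif or Eef and a digit, without the kinases of eIF2 (Eif2ak1 to Eif2ak4), the Y-linked Eif2s3y and pseudogenes. This gave 65 of 36410 listed genes, of which 63 passed the filter on low counts, as did 13508 genes in all. The lines are immortalized striatal cells from knock-in mice of the strain C57/BL6, and all of them carry an altered Hdh (Htt) exon 1 that sets the length of the glutamine repeat. For the control line, however, the paper names wild-type embryos as the source. Control cells (STHdhQ7/Q7) have 7 glutamines on both alleles, HD-het cells (STHdhQ7/Q111) have 7 on 1 allele and 111 on the other, and HD-homo cells (STHdhQ111/Q111) have 111 on both. Each genotype is 1 line with 3 libraries, and the effects of genotype and of line cannot be told apart. The labels do not say whether the libraries come from separate cultures, and the p values may therefore measure only technical spread.

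Initiation starts with eIF2, which carries the initiator tRNA to the small ribosomal subunit, and eIF2B, which recharges eIF2 with GTP. The eIF3 complex holds the small subunit together with the mRNA, and eIF4F binds the cap and unwinds the leader so that scanning can begin. During elongation eEF1A delivers each aminoacyl-tRNA and eEF2 moves the ribosome by one codon. The mRNAs of many of these factors are abundant in growing cells and share control with the mRNAs of ribosomal proteins.

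Totals ran from 29507665 to 41197931 counts per library, and 3 counts, taken as the floor of detection for counting error only, correspond to 0.0710 to 0.101 counts per megaread (CPM). Of the 6 genes fixed for striatal projection neurons, Drd1 and Drd2 had at most 3 counts in every library and the summed level of all 6 was 0.975 to 4.00 CPM. Of the 5 pan-neuronal genes, Rbfox3, Syt1 and Snap25 had at most 3 counts, while Map2 and Tubb3 were detected, and the sum of the list was 92.8 to 113.5 CPM in control, 106 to 113.9 in HD-het and 88.8 to 113.3 in HD-homo cells. Markers of astrocytes, microglia and endothelium summed to at most 0.954, 2.39 and 0.626 CPM. The summed level of the 3 progenitor markers Nes, Sox2 and Pax6 was 660.2 to 701.5 CPM in control, 949.2 to 989.0 in HD-het and 27.2 to 40.2 in HD-homo cells, and that of 4 mesenchymal genes led by Col1a1 was 9859 to 10449, 16133 to 17925 and 9678 to 10649 CPM. The mesenchymal and progenitor sums were highest in HD-het cells, where most translation factors were lowest, and their part in the results was not tested. In bulk RNA, fewer cells of a type and less RNA per cell cannot be told apart.

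The translation factors of HD-het cells stood mostly below those of control cells. With a threshold of 0.05 for the adjusted p (edgeR's quasi-likelihood test, two-sided, with Benjamini-Hochberg adjustment over all tested genes), 35 of the 63 tested members fell and 7 rose, where 31.4% and 33.8% of all tested genes passed in these directions. Their median log2 fold change was -0.32, against 0.03 for all tested genes. In HD-homo cells 16 rose and 12 fell, against 29.6% and 28.9% of all genes, and the median was 0.01 for both the members and all genes. HD-homo cells exceeded HD-het cells in 37 members and fell below them in 10, against 36.0% and 35.6% of all genes. The 3 comparisons share libraries, and each is given by its own values. HD-het was the line with the lowest mean level for 41 of the 63 tested members, HD-homo for 15 and control for 7. Among all tested genes, 35.9% were lowest in HD-het, 34.1% in HD-homo and 29.97% in control cells.

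Most of these changes were small. Against control cells, 19 members differed by a log2 fold change of 0.5 or more in HD-het and 9 in HD-homo cells, where 41.2% and 35.3% of all tested genes did so. The 9 include Eef1akmt3, which had 3 to 11 counts per library and was not called (adjusted p = 0.12). A change of 1 or more was seen for 1 member, Eif3l, in the HD-het line and for 0 in the HD-homo line, against 19.4% and 19.8% of all genes. Many members are among the more abundant mRNAs, and no comparison with genes of like level was made. Summed over the 65 members, the level was 29375, 29413 and 30465 CPM in the control libraries (in rising order), 21167, 21541 and 23121 in HD-het and 27522, 29601 and 29714 in HD-homo cells. The HD-het libraries lay below all others, and the HD-homo and control libraries overlapped. As raw counts, the members took 2.93% to 3.05% of each control, 2.12% to 2.27% of each HD-het and 2.82% to 2.99% of each HD-homo library.

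**Figure D1:**
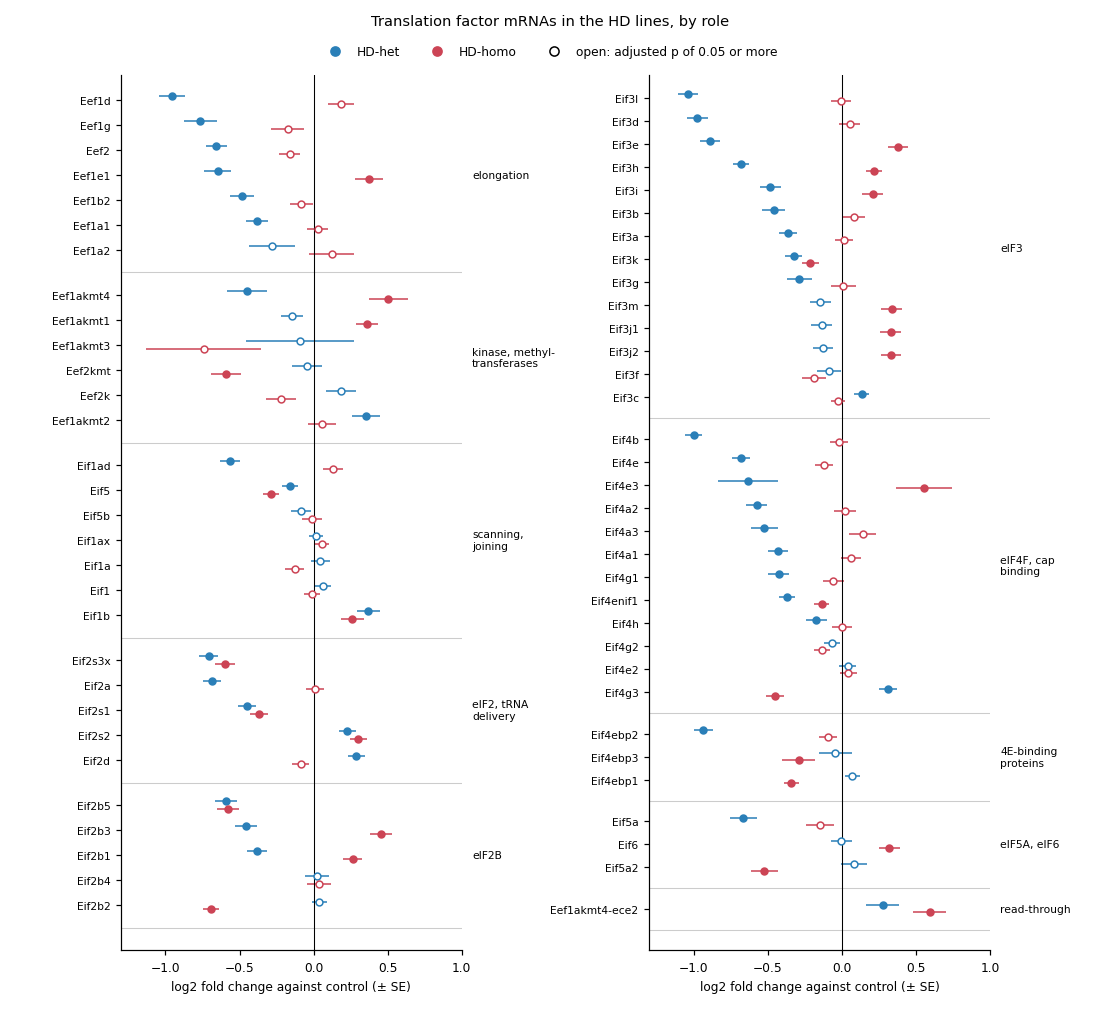
Log2 fold change against control cells (horizontal axis, with standard error) of the 63 tested translation factors, grouped by role, in HD-het (blue) and HD-homo cells (red). Filled points passed an adjusted p of 0.05. The blue points lie left of 0 for most eIF3, eIF4F and elongation factors, down to -1.04 for Eif3l, and the red points scatter around 0.

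The elongation factors include some of the most abundant mRNAs of these cells, with Eef1a1 at rank 4 and Eef2 at rank 8 of the 13508 tested genes by mean CPM. Per kilobase of exon, Eef1a1, which delivers aminoacyl-tRNA, stood at 2847 CPM in control cells, Eef2, the translocase, at 1484 and Eef1g, a subunit of the exchange complex that recharges eEF1A, at 655. All 7 mRNAs of this role were lower in HD-het cells, 6 of them past the threshold (85.7%, beside 31.4% of all tested genes). In HD-homo cells 1 rose (14.3%, beside 29.6%). Eef2 was measured at 4614, 4538 and 4597 CPM in the control libraries, 2886, 2737 and 3090.3 in HD-het and 4292, 3827 and 4182 in HD-homo libraries. No library of one line reached the range of another. The share of all tested genes whose libraries separate in this way is not given, here or for the members below. The log2 fold change was -0.66 (SE 0.0712, adjusted p = 1.1e-05) in HD-het and -0.16 (SE 0.0710, adjusted p = 0.072) in HD-homo cells. With DESeq2's Wald test the HD-homo value also passed (-0.16, adjusted p = 0.0321).

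Eef1a1 was at 5556, 5563 and 6174 CPM in control, 4368, 4275 and 4626 in HD-het and 5957, 5664 and 6011 in HD-homo libraries. Only the HD-het libraries stood apart, with a log2 fold change of -0.38 (SE 0.0709, adjusted p = 6.2e-04). Its paralog Eef1a2, the form of neurons and muscle, was present at 7.32 ± 0.846 CPM in control, 6.02 ± 0.167 in HD-het and 7.97 ± 1.84 (SD, n = 3 for each) in HD-homo cells. Eef1a2 passed neither test against control cells, and its difference between the HD lines, 0.40 on the log2 scale (adjusted p = 0.037), was lost without any 1 of the 3 HD-het libraries (adjusted p = 0.0684 to 0.0974) or without HD-homo replicate 3 (adjusted p = 0.171). Of the 50-base words of the Eef1a1 transcripts, 52.4% also occur in other genes, mostly pseudogene copies, and 64.3% of those of Eef1g, so reads of these genes could be split between listings.

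The exchange factors showed the widest range within the elongation group. Eef1d was at 347, 342 and 382 CPM in control, 184, 162 and 206 in HD-het and 431, 372 and 412 in HD-homo libraries. The HD-het libraries lay far below the rest, at a log2 fold change of -0.96 (SE 0.0903, adjusted p = 4.0e-06). In HD-homo cells the value was 0.18 (adjusted p = 0.099), and it passed without HD-homo replicate 2 (0.24, adjusted p = 0.0416). Counted against Eef1b2, another exchange subunit, Eef1d stood at 0.711 ± 0.0220 reads per Eef1b2 read in control, 0.511 ± 0.0232 in HD-het and 0.853 ± 0.0158 in HD-homo cells (SD, n = 3). Eef1e1, a scaffold protein of the multisynthetase complex that carries an elongation factor name, was the member of this role that rose in HD-homo cells, from 65.8 ± 1.11 to 85.4 ± 8.10 CPM (SD, n = 3, log2 fold change 0.37, adjusted p = 0.0047), and it fell to 42.0 ± 5.38 CPM (SD, n = 3) in HD-het cells (log2 fold change -0.65, adjusted p = 9.9e-05).

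The enzymes that modify elongation factors did not move together. Of 6 tested, 1 rose and 1 fell in HD-het cells (16.7% each, beside 33.8% and 31.4% of all tested genes). In HD-homo cells 2 rose and 1 fell (33.3% and 16.7%, beside 29.6% and 28.9%). Eef2k, the kinase that inhibits eEF2, was at 39.5, 38.2 and 39.6 CPM in control, 45.1, 40.7 and 47.7 in HD-het and 31.4, 29.9 and 39.5 in HD-homo libraries. Neither HD line passed against control cells (log2 fold change 0.19, adjusted p = 0.12 in HD-het, and -0.22, adjusted p = 0.086 in HD-homo cells), and the HD-homo decrease passed without HD-homo replicate 3 (-0.35, adjusted p = 0.0031). HD-homo cells lay below HD-het cells, at a log2 fold change of -0.41 (adjusted p = 0.0037). Per read of Eef2 there were 0.0153 ± 4.05e-04 reads of Eef2k in HD-het cells, 0.0085 ± 1.04e-04 in control and 0.0082 ± 0.0011 in HD-homo cells (SD, n = 3), so that the HD-het libraries held the highest ratio.

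Eef2kmt, the methyltransferase of eEF2, fell in HD-homo cells from 8.33 ± 0.338 to 5.52 ± 0.491 CPM (SD, n = 3, log2 fold change -0.59, SE 0.104, adjusted p = 5.4e-04) and was at 8.07 ± 0.525 CPM in HD-het cells (adjusted p = 0.71). Eef1akmt4, one of the lysine methyltransferases of eEF1A, went in opposite directions in the HD lines at -0.45 on the log2 scale in HD-het (adjusted p = 0.012) and 0.51 in HD-homo cells (adjusted p = 0.0063). The HD-het decrease was lost without HD-het replicate 2 (-0.36, adjusted p = 0.0545). A listing that joins this gene to its neighbour, Eef1akmt4-ece2, shares sequence with it and was higher in HD-homo cells (0.59, adjusted p = 7.2e-04). Its value in HD-het cells, 0.28 (adjusted p = 0.046), lost its call without any single control or HD-het library (adjusted p = 0.0523 to 0.163). Eef1akmt2 rose in HD-het cells by 0.35 (adjusted p = 0.0065).

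In each HD line the eIF2 subunit mRNAs Eif2s1 and Eif2s3x fell and Eif2s2 rose. Of all tested genes, 31.4% fell and 33.8% rose in HD-het cells, and 28.9% and 29.6% in HD-homo cells. Eif2s3x, the gamma subunit that binds GTP and the initiator tRNA, was at 669.9, 682 and 685 CPM in control, 386, 403 and 458 in HD-het and 452, 445 and 448 in HD-homo libraries. All HD libraries lay below all control libraries, with log2 fold changes of -0.71 (SE 0.0655, adjusted p = 3.4e-06) and -0.60 (SE 0.0654, adjusted p = 1.4e-05). Eif2s1, the alpha subunit that is phosphorylated under stress, fell as well, with log2 fold changes of -0.45 in HD-het (adjusted p = 7.0e-05) and -0.37 in HD-homo cells (adjusted p = 3.8e-04). Eif2s2, the beta subunit, rose by 0.23 (adjusted p = 0.004) and 0.30 (adjusted p = 7.9e-04). There were 1.76 ± 0.0793 reads of Eif2s3x per read of Eif2s2 in control, 0.918 ± 0.0685 in HD-het and 0.943 ± 0.0296 in HD-homo cells (SD, n = 3). The ratio in every HD library was below that in every control library. The gamma subunit is read here from the X-linked Eif2s3x alone. The Y-linked Eif2s3y is outside the rule, and the sex of the lines was not examined. Eif2s3x and Eif2s2 share 35.4% and 21.9% of their 50-base words with other genes, mostly 1 predicted copy each.

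The factors that can bring initiator tRNA without eIF2 changed in HD-het cells. Eif2a fell there from 106 ± 3.35 to 65.9 ± 3.69 CPM (SD, n = 3, log2 fold change -0.68, adjusted p = 2.9e-06) and Eif2d rose from 36.3 ± 0.911 to 44.4 ± 0.889 CPM (SD, n = 3, log2 fold change 0.29, adjusted p = 9.3e-04). In HD-homo cells neither passed, at 0.01 and -0.09.

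**Figure D2:**
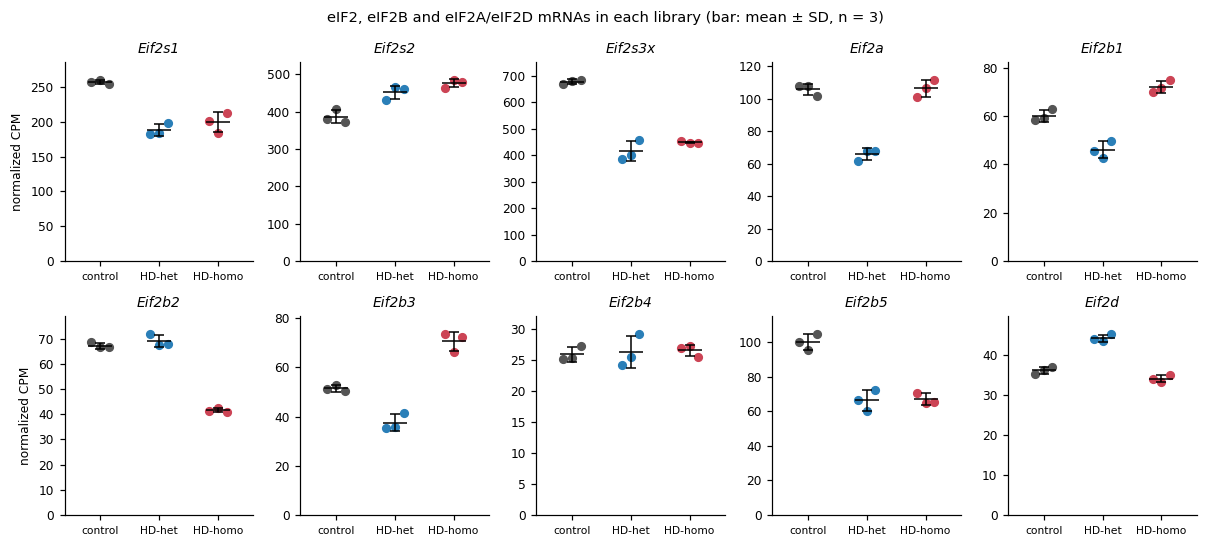
Normalized CPM (vertical axis, from 0) of the eIF2 subunits, eIF2A, eIF2D and the eIF2B subunits in each of the 3 control, 3 HD-het and 3 HD-homo libraries, with mean and SD. Eif2s1 and Eif2s3x are below control in both HD lines and Eif2s2 is above, and Eif2b2 is low in the HD-homo libraries alone (41.4, 42.6 and 40.8 CPM).

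Of the 5 subunits of eIF2B, the exchange factor of eIF2, 3 fell in HD-het cells (60%, beside 31.4% of all tested genes). In HD-homo cells 2 fell and 2 rose (40% each, beside 28.9% and 29.6%). Eif2b5, the catalytic epsilon subunit, was at 99.9, 95.6 and 105 CPM in control, 66.6, 60.3 and 72.5 in HD-het and 70.8, 64.6 and 65.4 in HD-homo libraries. It was lower in both HD lines, with log2 fold changes of -0.59 (SE 0.0736, adjusted p = 3.3e-05) and -0.58 (SE 0.0735, adjusted p = 4.4e-05). Eif2b3, the gamma subunit that pairs with epsilon, was at 51.3, 52.9 and 50.3 CPM in control, 35.2, 35.7 and 41.6 in HD-het and 73.5, 66.1 and 72.2 in HD-homo libraries. The HD lines lay on opposite sides of control, at -0.46 (SE 0.0751, adjusted p = 2.6e-04) and 0.45 (SE 0.0741, adjusted p = 3.0e-04), without overlap. The ratio of Eif2b5 to Eif2b3 reads was 1.94 ± 0.136 in control, 1.77 ± 0.104 in HD-het and 0.949 ± 0.0376 in HD-homo cells (SD, n = 3), and the HD-homo libraries lay below all others.

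Among the regulatory subunits, Eif2b2 (beta) was at 68.6, 66.6 and 66.6 CPM in control, 71.8, 67.5 and 68.1 in HD-het and 41.4, 42.6 and 40.8 in HD-homo libraries. The decrease in HD-homo cells, -0.69 (SE 0.0532, adjusted p = 7.1e-07), was the largest of any member past the threshold in that line, and the HD-het value was 0.04 (adjusted p = 0.53). Eif2b1 (alpha) fell in HD-het cells with a log2 fold change of -0.38 (adjusted p = 3.9e-04) and rose in HD-homo cells by 0.26 (adjusted p = 0.0055). Eif2b4 (delta) was at 26.0 ± 1.17, 26.4 ± 2.58 and 26.6 ± 0.887 CPM (SD, n = 3) in the same order of lines. The 95% interval of its difference from control cells on the log2 scale was -0.15 to 0.20 for HD-het and -0.14 to 0.21 for HD-homo cells. Per read of Eif2b1 there were 1.12 ± 0.0590 reads of Eif2b2 in control, 1.51 ± 0.119 in HD-het and 0.577 ± 0.0280 in HD-homo cells (SD, n = 3).

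The eIF3 complex, which is built from about as many subunits as there are listings here, included Eif3l, the member with the largest change in HD-het cells. Of its 14 listings, 9 fell and 1 rose in HD-het cells (64.3% and 7.14%, beside 31.4% and 33.8% of all tested genes). In HD-homo cells 6 rose and 1 fell (42.9% and 7.14%, beside 29.6% and 28.9%). The 6 include both Eif3j1 and Eif3j2, whose counts were almost the same. Eif3l was at 501, 489.8 and 497 CPM in control, 236, 225 and 264 in HD-het and 507, 468 and 507 in HD-homo libraries. The log2 fold change in HD-het cells was -1.04 (SE 0.0669, adjusted p = 2.4e-07), and the HD-homo and control libraries overlapped (-0.01, adjusted p = 0.94). Eif3d, the subunit that can itself bind the cap, was at 369.8, 362 and 373, 182, 177 and 203 and 393, 349 and 404 CPM in the libraries of the lines in that order. It had the same shape, with -0.98 (SE 0.0718, adjusted p = 6.2e-07) in HD-het and 0.05 (adjusted p = 0.54) in HD-homo cells.

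Eif3e was low in HD-het and high in HD-homo cells, at 420.2, 423 and 411 CPM in control, 212, 223 and 241 in HD-het and 545, 503 and 580.5 in HD-homo libraries. Its log2 fold changes against control cells were -0.89 (SE 0.0679, adjusted p = 7.9e-07) and 0.38 (SE 0.0673, adjusted p = 5.8e-04), and the difference between the HD lines, 1.27 (adjusted p = 2.7e-08), was the largest of all 63 members. Eif3c, a core subunit, was the one that rose in HD-het cells, by 0.13 (adjusted p = 0.03), a call that was lost without any single control library and without HD-het replicate 1 or 2 (adjusted p = 0.0544 to 0.0913). Counted per read of Eif3d, Eif3c was at 1.53 ± 0.0194 in control, 3.31 ± 0.266 in HD-het and 1.45 ± 0.0976 in HD-homo cells (SD, n = 3). Eif3k was lower in both HD lines (-0.32 and -0.21, adjusted p = 4.1e-04 and 0.0074). Eif3j1 and Eif3j2 gave almost the same counts and share 90.8% of the words of Eif3j2, so their values (0.33 and 0.33 in HD-homo cells) are uncertain and stand for 1 gene or both.

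Among the factors grouped under eIF4F and cap binding, the HD-het decrease covered the cap-binding protein, the helicase and its cofactor. The group is wider than the eIF4F complex and also holds Eif4a3, Eif4e2, Eif4g2 and Eif4enif1. Eif4enif1 fell in both HD lines (-0.37 in HD-het and -0.14 in HD-homo cells). Of 12 tested factors 9 fell and 1 rose in HD-het cells (75% and 8.33%, beside 31.4% and 33.8% of all tested genes). In HD-homo cells 1 rose and 2 fell (8.33% and 16.7%, beside 29.6% and 28.9%). Eif4b, the cofactor of the helicase eIF4A, was at 1035, 1020.1 and 1050.2 CPM in control, 509.7, 497 and 547 in HD-het and 1049.8, 977 and 1037 in HD-homo libraries. Its log2 fold change was -0.999 in HD-het (SE 0.0589, adjusted p = 1.2e-07) and -0.02 in HD-homo cells (adjusted p = 0.79). The helicase mRNAs Eif4a1 and Eif4a2 fell in HD-het cells, with log2 fold changes of -0.43 and -0.58 (adjusted p = 1.9e-04 and 4.0e-05), and so did Eif4a3, the helicase of the exon junction complex (-0.52, adjusted p = 3.8e-04). In HD-homo cells these 3 were at 0.06, 0.02 and 0.14 and did not pass. Eif4a1 shares 65.3% of its words with other listings, nearly all with 1 pseudogene.

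The paralogs that bind the cap did not behave alike. Eif4e, the main cap-binding protein, was at 302, 305 and 297 CPM in control, 179, 187 and 198 in HD-het and 287, 261 and 284 in HD-homo libraries, a decrease of -0.68 (SE 0.0585, adjusted p = 2.0e-06) in HD-het cells. Eif4e2, a cap-binding protein that represses translation, was at 114 ± 3.46, 118 ± 4.63 and 118 ± 5.62 CPM (SD, n = 3), with 95% intervals of the log2 fold change of -0.09 to 0.17 and -0.08 to 0.17. Eif4e3 was near 2.67 ± 0.380 CPM (SD, n = 3) in control cells and passed in opposite directions in HD-het (-0.63, adjusted p = 0.017) and HD-homo cells (0.55, adjusted p = 0.025). With 1 library left out at a time, the log2 fold changes kept their sign (-0.82 to -0.50 and 0.44 to 0.67), but both calls could be lost. The first was lost without control replicate 1 or 2 or HD-het replicate 1 or 2 (adjusted p = 0.0552 to 0.0740), and the second without control replicate 3 or HD-homo replicate 2 or 3 (adjusted p = 0.0528 to 0.0943). Eif4e1b, known from the germ line, had 0 to 2 counts in every library and was not tested.

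The scaffold paralogs differed as well. Eif4g1, which joins eIF4E, eIF4A and the poly(A)-binding protein, was at 1294 ± 32.3 CPM in control, 964 ± 50.8 in HD-het and 1243 ± 98.8 (SD, n = 3) in HD-homo cells, and fell in HD-het cells, with a log2 fold change of -0.43 (adjusted p = 2.8e-04). Eif4g3, a second scaffold of the same kind, was at 166, 171 and 169 CPM in control, 212, 212 and 203 in HD-het and 134, 121 and 116 in HD-homo libraries. It rose in HD-het cells (0.31, SE 0.0598, adjusted p = 8.2e-04) and fell in HD-homo cells (-0.45, SE 0.0601, adjusted p = 6.5e-05). There were 0.130 ± 0.0043 reads of Eif4g3 per read of Eif4g1 in control, 0.218 ± 0.0164 in HD-het and 0.0996 ± 0.0085 in HD-homo cells (SD, n = 3), without overlap between lines. Eif4g2, a scaffold that lacks the eIF4E site, did not pass (-0.07 and -0.14, adjusted p = 0.30 and 0.053), though the HD-homo value passed with DESeq2 (adjusted p = 0.0093).

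The 4E-binding proteins, which keep eIF4E from eIF4G when they are not phosphorylated, moved apart as well. Eif4ebp2 was at 181, 177 and 188 CPM in control, 95.3, 88.4 and 102 in HD-het and 175, 163 and 174 in HD-homo libraries. It fell in HD-het cells, with a log2 fold change of -0.93 (SE 0.0632, adjusted p = 3.4e-07). Eif4ebp1 was at 139, 139 and 134 CPM in control, 151, 140.4 and 141 in HD-het and 108, 107 and 110.2 in HD-homo libraries, a decrease in HD-homo cells (-0.34, SE 0.0510, adjusted p = 1.6e-04). Eif4ebp3 was far lower, at 5.82 ± 0.289 CPM (SD, n = 3) in control cells. Its HD-homo value of -0.29 (adjusted p = 0.045) lost its call without any single control library or HD-homo replicate 2 or 3 (adjusted p = 0.0535 to 0.147), and 65.5% of its words are also in a readthrough listing. For each read of Eif4e there were 0.456 ± 0.0050 reads of Eif4ebp1 in control, 0.769 ± 0.0676 in HD-het and 0.392 ± 0.0164 in HD-homo cells, and 0.605 ± 0.0265, 0.507 ± 0.0313 and 0.616 ± 0.0070 reads of Eif4ebp2 (SD, n = 3).

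**Figure D3:**
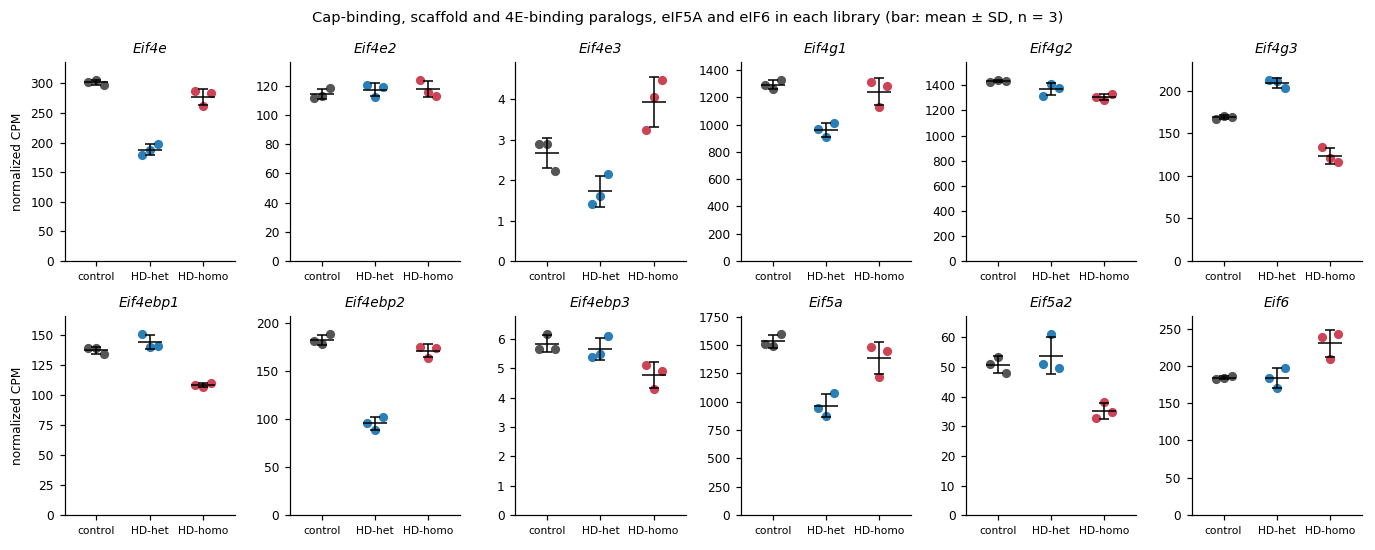
Normalized CPM (vertical axis, from 0) of the eIF4E, eIF4G and 4E-binding protein paralogs, eIF5A paralogs and eIF6 in each library of the 3 lines, with mean and SD. Eif4e and Eif4ebp2 are low in the HD-het libraries, Eif4g3 is highest in HD-het and lowest in HD-homo libraries, and Eif4ebp1 and Eif5a2 are lowest in HD-homo libraries.

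Factors that act late also differed between paralogs. Eif5a, which helps the ribosome through difficult peptide bonds and carries the amino acid hypusine, was at 1506, 1495 and 1596 CPM in control, 942, 878 and 1081 in HD-het and 1482, 1220.5 and 1449 in HD-homo libraries. It fell in HD-het cells, with a log2 fold change of -0.66 (SE 0.0926, adjusted p = 7.6e-05). Eif5a2 was at 51.2, 53.4 and 47.9, 50.9, 61.1 and 49.6 and 32.9, 38.2 and 34.8 CPM, a decrease in HD-homo cells (-0.52, SE 0.0906, adjusted p = 4.6e-04). Eif6, which keeps the large subunit from joining too early, rose in HD-homo cells from 184 ± 2.17 to 230.1 ± 17.8 CPM (SD, n = 3, log2 fold change 0.32, adjusted p = 0.0025) and was at -0.00 in HD-het cells (95% interval -0.16 to 0.15).

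Under scanning and subunit joining 7 listings are grouped here, among them Eif1ad, whose part in these steps was not tested. In HD-het cells 2 fell and 1 rose (28.6% and 14.3%), where 31.4% and 33.8% of all tested genes did. In HD-homo cells 1 fell and 1 rose (14.3% each), where 28.9% and 29.6% did. Eif1, which guards the choice of the start codon, was at 342 ± 7.57, 357 ± 15.1 and 340.2 ± 12.4 CPM (SD, n = 3) in control cells and the HD-het and HD-homo lines, with 95% intervals of -0.06 to 0.18 and -0.13 to 0.11 for the log2 fold change. Its paralog Eif1b rose by 0.37 (adjusted p = 0.0015) in HD-het and 0.26 (adjusted p = 0.014) in HD-homo cells, the second lost without control replicate 2 (adjusted p = 0.0533) or HD-homo replicate 3 (adjusted p = 0.0524). The partners in scanning, Eif1a and Eif1ax, passed in neither HD line (0.04 and 0.02 in HD-het, -0.13 and 0.05 in HD-homo cells). Eif1ad fell in HD-het cells, with a log2 fold change of -0.57 (adjusted p = 2.4e-05). Eif5, the GTPase activator of eIF2, was lower in HD-homo cells (-0.29, adjusted p = 8.9e-04), and its HD-het value of -0.16 (adjusted p = 0.025) was lost without control replicate 1 or 2 or HD-het replicate 1 or 3 (adjusted p = 0.0688 to 0.0941). Eif2c5, a listing that GENCODE classes as a long noncoding RNA, had 0 counts in all libraries.

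The members are spread over nearly all chromosomes, and the largest HD-het decreases sat together on chromosome 15. The 6 members on chromosome 15 of GRCm38 are Eif3e (43250058 to 43282719), Eif3h (51786558 to 51865523), Eef1d (75894205 to 75909556), Eif3d (77958998 to 77970813), Eif3l (79075179 to 79094405) and Eif4b (102073773 to 102097173). All 6 fell in HD-het cells, with a median log2 fold change of -0.97. They include Eif3l, Eif4b, Eif3d and Eef1d, the members with the largest decreases of that line, and Eif4ebp2, the next in size, is on chromosome 10. The other 541 tested genes of chromosome 15 had a median of -0.54 in the same comparison, and 68.8% of them fell past the threshold, the highest share of any chromosome. In HD-homo cells the median of those 541 genes was 0.03. The poly(A)-binding protein gene Pabpc1, on the same chromosome, had a log2 fold change of -1.05 in HD-het cells. Chromosome numbers and gene dosage were not measured, and their part in these values was not tested.

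Outside chromosome 15 the HD-het decrease was smaller but present. There, 29 of 56 placed and tested members (51.8%) fell and 6 rose in HD-het cells, with a median of -0.23. The shares of all tested genes, chromosome 15 included, were 31.4% and 33.8%, and their median was 0.03. Among the other tested genes of single chromosomes outside 15, the share that fell ran from 13.3% on chromosome 18 to 53.3% on chromosome 19. Of all 62 placed members, 52 lay below the median of the other genes of their own chromosome in HD-het cells and 10 above it, by a median of -0.37. In HD-homo cells 32 lay below and 30 above. Leaving out chromosome 15 was chosen after its values were seen.

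**Figure D4:**
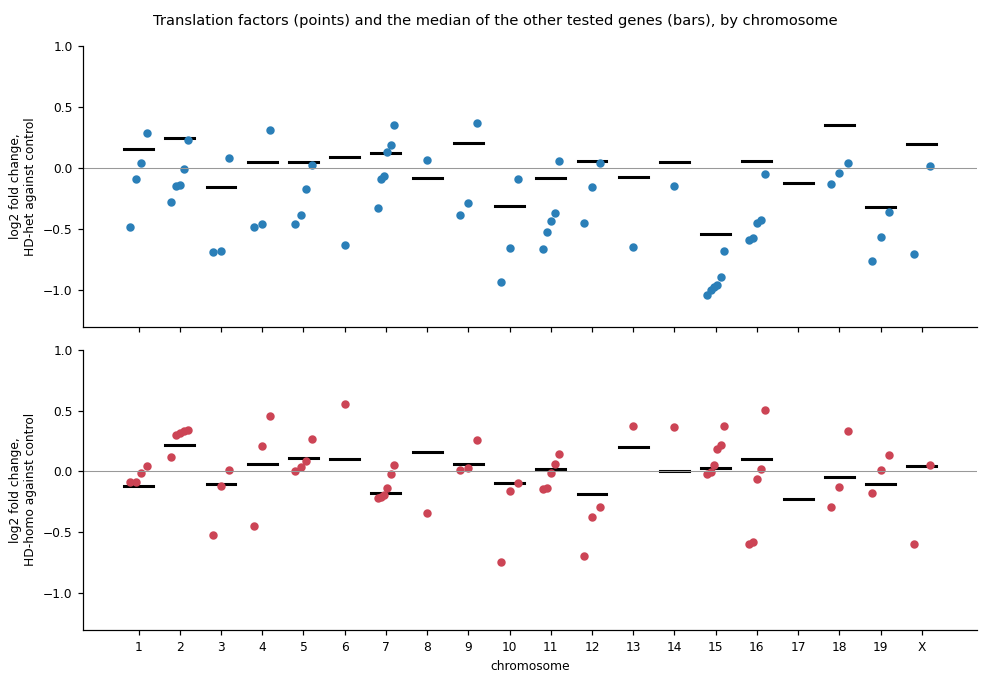
Log2 fold change against control cells (vertical axis) of the translation factors (points) and the median of the other tested genes (bars) on each chromosome (horizontal axis), in HD-het (top) and HD-homo cells (bottom). On chromosome 15 all 6 points lie below a bar that is itself at -0.54 (HD-het), while the bar of HD-homo cells is at 0.03.

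Promoter sequence was read for the members from RefSeq windows of 300 bases, 250 before and 50 after each annotated start (GRCm38.p6), which matched 49 members. The E-box CACGTG, the site of Myc and related factors, is its own reverse complement. It occurred in the windows of 14 of the 49 (28.6%), against 11.6% of the tested genes and 8.09% of all genes with a window. The 14 and the 49 count Eef1akmt4 and the joined listing Eef1akmt4-ece2 separately, although both have the same window and site. Of the 14, Eif1b and Eef1akmt4-ece2 rose in HD-het cells, and Eef2k, Eif3f and Eif5a2 did not pass there. The others fell, as did 35 of all 63 tested members and 31.4% of all tested genes. The ETS core CCGGAAG, on either strand, occurred in 16 (32.7%), against 19.4% and 9.93%. For TGATGNAA, the core bound by ATF4, on either strand, the numbers were 2 members (4.08%), 2.76% and 4.51%, for the cAMP response element TGACGTCA 1 member (2.04%), 3.48% and 2.03%, and for TATAAA on the strand of the gene 4 members (8.16%), 5.47% and 9.77%. The letters are a description of these windows and do not show that a factor binds. The windows around an E-box are shown for 3 factors that fell in HD-het cells and for 1 that changed in HD-homo cells. The E-box is in capitals, and each window is written along the strand of its gene. Eif4e and Eif5a2 each hold another E-box that is not shown. They lie at chr10:81176576-81176605 (plus strand) for Eef2, chr3:138527192-138527221 (plus strand) for Eif4e, chr11:69672595-69672624 (minus strand) for Eif4a1 and chr3:28781123-28781152 (plus strand) for Eif5a2.
Eef2: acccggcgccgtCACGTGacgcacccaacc
Eif4e: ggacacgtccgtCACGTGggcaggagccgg
Eif4a1: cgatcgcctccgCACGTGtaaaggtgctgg
Eif5a2: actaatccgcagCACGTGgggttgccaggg

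The ETS core stood in the windows of 5 eIF3 subunits, Eif3c, Eif3d, Eif3g, Eif3l and Eif3m, whose values in HD-het cells were 0.13, -0.98, -0.29, -1.04 and -0.15 on the log2 scale. The windows are shown for Eif3d and Eif3l, which fell most of the 5, for Eif3c, which was the one that rose and holds the core at 2 places, all as the reverse complement, and for Eif2b2, which fell in HD-homo cells. The core is in capitals, and the 30 bases lie at chr15:77970876-77970905 (minus strand) for Eif3d, chr15:79075177-79075206 (plus strand) for Eif3l, chr7:126566416-126566445 (minus strand) for Eif3c and chr7:126566382-126566411 (minus strand) for Eif3c, and chr12:85219486-85219515 (plus strand) for Eif2b2.
Eif3d: gctgtgacacaCTTCCGGttgtgtctcact
Eif3l: gctgggcgggaCTTCCGGtccggccaagca
Eif3c: attctttggtgCTTCCGGgaagtgacgccc
Eif3c: aaccttttcctCTTCCGGcgtcgtgcctgt
Eif2b2: cctctctcggcCCGGAAGtgaaacagtgct

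Transcript starts were also searched for the terminal oligopyrimidine motif, a C followed by at least 4 pyrimidines, by which mTOR controls the translation of many of these mRNAs. In GENCODE, 9 of the 63 members with a coding transcript (14.3%) had a transcript with this start, against 5.80% of the tested genes. For each gene the annotated coding transcript with the longest run was taken. Genes with more annotated transcripts therefore had more chances, and the transcript taken need not be the main one. Annotated starts are often not the starts in use, and Eef1a1 and Eef2, textbook examples of the motif, were not among the 9. Of the 9, 5 fell and 0 rose in HD-het cells. Of the 53 tested members without this start, 30 fell and 6 rose, where 31.4% and 33.8% of all tested genes did. The starts below show the pyrimidine run in capitals, from transcripts Eef1b2-209, Eef1d-217 and Eif2s3x-202. They are given for 2 exchange factors whose mRNA fell in HD-het cells and for Eif2s3x. Eif2s3x and Eif2s1, also among the 9, fell in both HD lines.
Eef1b2: CTTTTTTTCCCTCagcgctg
Eef1d: CTCTCCTTTgcagtcctgag
Eif2s3x: CTTTTCTCTCCgagcaagat

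A list of 35 genes of the translation machinery that the rule leaves out (termination, poly(A) binding, helpers and kinases, hypusine and diphthamide synthesis, selenocysteine insertion and mitochondrial factors) was counted beside the members, and all 35 were tested. In HD-het cells 22 fell (62.9%) and 6 rose (17.1%), where 31.4% and 33.8% of all tested genes did, with a median log2 fold change of -0.23 against 0.03. In HD-homo cells 15 rose (42.9%) and 7 fell (20%), where 29.6% and 28.9% of all tested genes did, with a median of 0.08 against 0.01. The largest decrease in HD-het cells was that of Pabpc1 (-1.05, SE 0.0825, adjusted p = 1.0e-06), the main poly(A)-binding protein, and the largest increase that of Mtif2, an initiation factor of mitochondria (0.35, adjusted p = 0.0048). In HD-homo cells Pdcd4, an inhibitor of eIF4A, rose most (0.64, SE 0.154, adjusted p = 0.004), and Dohh, the enzyme that completes hypusine on eIF5A, fell most (-0.54, adjusted p = 1.8e-04). Dohh was also lower in HD-het cells (-0.96, adjusted p = 2.1e-06). All 5 poly(A)-binding and interacting genes passed in HD-het cells, 4 lower and 1 higher, and of the 9 hypusine and diphthamide enzymes 7 fell and 2 rose there.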

How the data were processed

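The authors isolated total RNA, selected poly(A) RNA, made strand-specific libraries and deposited raw counts by gene symbol, 1 column for each of the 9 libraries. The submitters' processing notes name cutadapt, Bowtie 1.1.2, RSEM 1.3.0 and DESeq2, and the builds GRCm38.p5 and mm10, without a role for each. How reads that match several genes were counted is not given in the sources used here. The table has no row for reads without a gene.

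Genes were kept by filterByExpr (minimum count 10, the lines as groups), scaled by TMM (factors 0.984 to 1.03) and compared in R 4.3.3 by the quasi-likelihood test of edgeR 4.0.16, with 1 mean per line fitted to all 9 libraries and Benjamini-Hochberg adjustment over 13508 genes. Normalized CPM used the scaled totals of tested genes. Standard errors follow from the F statistic. Values are mean ± SD of 3 libraries, and two-sided adjusted p values come from edgeR. The fit was tested on simulated data. Replicate libraries varied between 2.13 and 37.7 times counting noise, so none was a duplicate.

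Alternatives were DESeq2's size factors, library totals only, DESeq2's Wald test (1.42.0), no filter, at least 10 counts in every library, only the 2 lines compared, a replicate block, each library left out, an adjusted p under 0.01 and a log2 fold change of at least 0.5. Chosen after seeing the data were leaving out all libraries numbered 3, summing Eif3j1 and Eif3j2, and leaving out chromosome 15. The members and lists were chosen with earlier results of these data known. Named are the paralog families, eIF2B, Eef2 with Eef2k, in each role the largest called increase and decrease of each HD line, its 5 largest called changes, the untested members and the extremes of the partner list. The other members named, among them Eif2s1, Eif2a, Eif3h, Eif3j1, Eif3j2, Eef1b2 and Eef1g, complete a complex, a chromosome or a ratio.

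Positions, exon lengths and transcripts are from GENCODE vM21 (GRCm38), which placed 64 of 65 members by symbol, and 97.1% of tested genes. Promoter windows and their coordinates are from RefSeq (GRCm38.p6). Shared sequence is the share of a gene's 50-base words found in another gene's transcripts.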

Additional observations from a re-analysis of the deposited data

How the results depend on the processing

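The counts of members and partners called stayed within 1.5 times their values under each alternative but one. When a change of 0.5 or more on the log2 scale was also required, 3 members were higher and 5 lower in HD-homo cells, 0 and 19 in the HD-het line, and 22 and 4 in HD-homo against HD-het cells. Without each library in turn, the counts were 14 to 17 higher and 10 to 12 lower in HD-homo, 5 to 6 and 31 to 37 in HD-het, and 34 to 38 and 9 to 10 between the HD lines. Of 1080 values of named members under alternatives that keep the libraries (or sum Eif3j1 and Eif3j2), 1049 kept direction and side of the threshold, 12 lost their call, 14 gained one and 5 turned sign, and of 810 with a library left out, 739 kept both, 41 lost, 7 gained and 23 turned. Those that turned sign were near 0 and not called with all libraries, and the cause was not tested. With library totals only, Eif1 was at 0.0051 and Eif3l at 0.0082 in HD-homo cells, with at least 10 counts in every library Eif3l was at 0.0014 there and Eif6 at 8e-04 in HD-het cells, and with only 2 lines Eif4e2 was at -0.0035 between the HD lines. Without all libraries numbered 3, Eef1a2 was at -0.0073 and Eif4a2 at -0.066 in HD-homo cells, and Eif2b4 at -0.020 in HD-het cells. With a library left out, log2 fold changes in HD-het cells ran from -0.058 to 0.079 for Eif2b4, -0.0026 to 0.085 for Eif1a, -0.059 to 0.049 for Eif6, -0.015 to 0.14 for Eif5a2, -0.080 to 0.0086 for Eef2kmt and -0.0039 to 0.046 for Eif1ax. In HD-homo cells they ran from -0.061 to 0.075 for Eif4a2, -0.034 to 0.020 for Eif1, -0.10 to 0.0063 for Eif4g1, -0.028 to 0.032 for Eif3l, -0.039 to 0.012 for Eif4b and -0.084 to 0.23 for Eef1a2, and between the HD lines from -0.043 to 0.094 for Eif2b4, -0.035 to 0.027 for Eif4e2 and -0.058 to 0.075 for Eif2b5. Same-numbered libraries deviated together weakly or not at all (r of 0.0089 to 0.033 between HD-homo and control, 0.049 to 0.14 between HD-het and control and -0.0053 to 0.13 between the HD lines). In no comparison did all replicate numbers exceed an r of 0.1, the limit set for pairing, so the numbers were not taken as pairs. A replicate block called 35 members for HD-homo (28 without it), 41 for HD-het (42) and 49 between the HD lines (47). Of the named members it added calls in HD-homo cells for Eif4a3 (adjusted p = 0.0475), Eif4g2 (0.0403), Eef2 (0.0387), Eef2k (0.0279), Eef1d (0.0245) and Eif1ad (0.0439) and between the HD lines for Eif5 (0.0373) and Eif3k (0.0453), and it lost that of Eif4ebp3 in HD-homo (0.0524) and of Eef1akmt4-ece2 in HD-het cells (0.0591). Depth limits Eif4e1b, Eif2c5 and Eef1akmt3, which had at most 2, 0 and 11 counts per library.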

Other observations

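Chromosomes other than 15 also had medians away from 0 in HD-het cells. The other 632 tested genes of chromosome 10 had a median log2 fold change of -0.31 and the 3 members there, Eef2, Eif4ebp2 and Eef1akmt3, a median of -0.66. On chromosome 19 the other 460 genes were at -0.32 and Eef1g, Eif1ad and Eif3a at -0.57. On chromosome 18 the other 347 genes were at 0.36, and Eif1a, Eif3j2 and Eif4ebp3 at -0.04. Outside chromosome 15, 46 of 56 members lay below the median of the other genes of their own chromosome and 10 above it. Among the 10 were Eef1akmt3 on chromosome 10 (-0.09 against -0.31) and Eif4ebp1, the 4E-binding protein on chromosome 8 (0.07 against -0.08). These chromosomes and members were picked after their values were seen, and no test was made.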
